A study of Mus musculus with 9 samples.

Results

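The 4 mouse metallothionein genes, Mt1, Mt2, Mt3 and Mt4, were chosen by their gene symbols from the 21498 symbols listed for the colorectal RNA of 9 mice, and all 4 were among the 15278 genes that passed the filter on low values. They had been singled out because their levels differed between the AOM/DSS groups in an earlier analysis of these samples, so those differences are described here without a test. The study asked how an antibody that neutralizes S100a9, a calcium-binding protein of myeloid cells, alters colitis-associated cancer and its gene expression. Male outbred ICR mice, 5 weeks old at the start, formed 3 groups of 3. The AOM/DSS + IgG Ab mice and the AOM/DSS + anti-S100a9 Ab mice had 1 intraperitoneal injection of the carcinogen azoxymethane (AOM, 10 mg/kg). They then drank dextran sulfate sodium (DSS), which injures the colon epithelium, in 3 cycles, at 2% for 7 days in the first and at 1.5% for 5 days in each later one. During these cycles a non-immune IgG or a rabbit polyclonal antibody against S100a9 was injected intravenously every other day at 1.5 mg/kg. The Control mice had no AOM, no DSS and no antibody, so that in a comparison with them the carcinogen, the colitis and the injected IgG cannot be told apart. All mice were killed at the end of week 18, and 1 RNA library came from each. The labels name the tissue of both AOM/DSS groups as adenocarcinoma of the colorectum and that of the Control mice as normal mucosa. The study's text, however, speaks of colon mucosa for the anti-S100a9 Ab group, and it reports a lower tumor rate and fewer tumors in these mice. If the kind of tissue differed, tissue and antibody cannot be told apart in a comparison of the AOM/DSS groups.

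Metallothioneins are small cysteine-rich proteins that bind zinc and copper through their thiol groups and so buffer these metals and react with oxidants. Mt1 and Mt2 are active in most tissues and are switched on by zinc through the factor Mtf1, which binds short metal response elements near their starts, and also by glucocorticoids and inflammatory cytokines. Mt3 is best known from brain and Mt4 from stratified squamous epithelium, and neither is usually counted among the genes of the colon.

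The 4 genes lie in a row on chromosome 8 of the GRCm38 build, from position 94137197 to 94180327 (43.1 kb), in the order Mt4, Mt3, Mt2, Mt1, all on the forward strand. The 250 bases before each annotated start (RefSeq, GRCm38.p6) are shown because a core of the metal response element is the sequence feature that ties these genes to zinc. Capitals mark every match to that core, TGCACNC or TGCGCNC, on either strand.
Mt4, chr8:94136954-94137203, forward strand: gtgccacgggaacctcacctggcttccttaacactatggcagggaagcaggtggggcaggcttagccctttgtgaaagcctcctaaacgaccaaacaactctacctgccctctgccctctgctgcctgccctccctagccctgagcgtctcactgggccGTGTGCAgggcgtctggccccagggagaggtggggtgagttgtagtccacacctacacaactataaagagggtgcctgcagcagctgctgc
Mt3, chr8:94152357-94152606, forward strand: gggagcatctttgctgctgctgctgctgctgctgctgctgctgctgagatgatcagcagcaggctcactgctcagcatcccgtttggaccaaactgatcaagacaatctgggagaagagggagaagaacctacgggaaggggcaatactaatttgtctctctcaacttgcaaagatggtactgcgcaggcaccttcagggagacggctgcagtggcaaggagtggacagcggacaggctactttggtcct
Mt2, chr8:94172368-94172617, forward strand: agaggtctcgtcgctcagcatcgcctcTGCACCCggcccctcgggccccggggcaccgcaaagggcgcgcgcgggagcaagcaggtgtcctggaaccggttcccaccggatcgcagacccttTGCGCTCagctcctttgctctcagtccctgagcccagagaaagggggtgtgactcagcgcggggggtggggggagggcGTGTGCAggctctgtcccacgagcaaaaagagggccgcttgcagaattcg
Mt1, chr8:94178839-94179088, forward strand: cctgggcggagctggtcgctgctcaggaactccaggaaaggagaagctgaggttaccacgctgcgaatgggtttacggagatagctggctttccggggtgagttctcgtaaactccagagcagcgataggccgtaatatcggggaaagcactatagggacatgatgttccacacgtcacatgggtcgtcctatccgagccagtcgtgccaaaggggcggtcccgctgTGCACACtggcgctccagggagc
In the window from 250 bases before to 50 bases after the start, the core matched 3 times in Mt1, 4 times in Mt2 and once each in Mt3 and Mt4, where matches after the start are counted but not shown. Among the 32851 promoter windows of the same length, 25.7% held at least 1 match, 1.97% at least 3 and 0.517% at least 4. The AP-1 word TGACTCA (or TGAGTCA) was found in Mt2 only (5.20% of all windows), the TATA box TATAAA in Mt4 only (13.6%), and the STAT word TTCNNNGAA in none of the 4 (8.30%). A match is a description of letters and no evidence of binding. Since GENCODE places other starts for Mt1, Mt2 and Mt4, further elements, a TATA box included, may lie outside these windows. The lack of a match is thus said of these windows only.

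In the Control mice Mt1 was the highest of the 4 genes and Mt4 was at or near 0, whereas in the AOM/DSS + IgG Ab mice all 4 genes stood at 166 FPKM or higher (fragments scaled to transcript length and to library size, so that levels of different genes can be compared). Mt3 and Mt4 had the largest differences. In the AOM/DSS + anti-S100a9 Ab mice, Mt3 and Mt4 were far below the IgG Ab mice, while Mt1 and Mt2 were below them in 2 mice and high in the other one. These are whole-tissue RNA levels, in which fewer cells of a type and less RNA per cell cannot be told apart.

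Mt4 was listed at 0.479, 1.49 and 0 FPKM in Control replicates 1, 2 and 3. In the IgG Ab mice it was 1592, 599 and 295 FPKM, and in the anti-S100a9 Ab mice 34.1, 3.55 and 0 FPKM. The IgG Ab group did not overlap either other group: its lowest mouse was 198-fold above the highest Control mouse and 8.63-fold above the highest anti-S100a9 Ab mouse. In IgG Ab replicate 1, Mt4 ranked 9 among all listed genes by FPKM. A value of 0 says only that the gene was listed at 0. From the estimated depth the values in Control replicates 1 and 2 correspond to about 4.95 and 13.2 fragments at most. On the log2(FPKM + 0.1) scale the difference from Control was 10.50 (SE 1.89), which ranked 3 among the differences of all 15278 genes, and it depended on the pseudocount, from 8.73 with a pseudocount of 1 to 11.72 with 0.01. The anti-S100a9 Ab mice were below the IgG Ab mice by a log2 difference of -8.14 (SE 1.89), the lowest of all genes at this pseudocount, and by -6.92 with a pseudocount of 1 and -9.26 with 0.01.

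Mt3 was 3.01, 3.60 and 4.86 FPKM in the Control mice (3.82 ± 0.946, SD, n = 3). In the IgG Ab mice it was 687, 272 and 258 FPKM (406 ± 243, SD, n = 3), a mean 106-fold that of Control. The anti-S100a9 Ab mice had 13.0, 4.41 and 2.06 FPKM (6.48 ± 5.75, SD, n = 3). As for Mt4, every IgG Ab mouse was above every other mouse, by at least 53.1-fold over Control and 19.9-fold over the anti-S100a9 Ab mice, and within the anti-S100a9 Ab group replicate 1 was highest and replicate 3 lowest for both genes. The log2 differences were 6.56 (SE 0.62) for IgG Ab against Control and -6.18 (SE 0.62) for anti-S100a9 Ab against IgG Ab.

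Mt2 was 18.0, 31.9 and 46.3 FPKM in the Control mice (32.1 ± 14.2, SD, n = 3). The IgG Ab mice had 237, 166 and 1429 FPKM (611 ± 710, SD, n = 3), all above the Control mice and with replicate 3 far above the others. In the anti-S100a9 Ab mice the values were 28.9, 28.1 and 191 FPKM (82.7 ± 93.8, SD, n = 3). Replicate 3 of that group was above IgG Ab replicate 2, so the groups overlapped, and the other anti-S100a9 Ab mice were within the Control range. The log2 differences were 3.68 (SE 0.93) and -2.83 (SE 0.93) for the same comparisons.

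Mt1 was 67.2, 103 and 143 FPKM in the Control mice (105 ± 38.2, SD, n = 3). The IgG Ab mice had 167, 166 and 1291 FPKM (541 ± 649, SD, n = 3), and the lowest of them was 1.16-fold above the highest Control mouse. The anti-S100a9 Ab mice had 63.0, 85.7 and 320 FPKM (156 ± 142, SD, n = 3), with replicate 3 above IgG Ab replicates 1 and 2. The log2 differences, 1.72 (SE 0.85) and -1.46 (SE 0.85), were the smallest of the family. The IgG Ab means of Mt1 and Mt2 rested on replicate 3: without it they were 167 and 201 FPKM, and the log2 differences from Control were 0.74 and 2.73. The means of Mt3 and Mt4 without IgG Ab replicate 1, their highest mouse, were 265 and 447 FPKM.

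**Figure D1:**
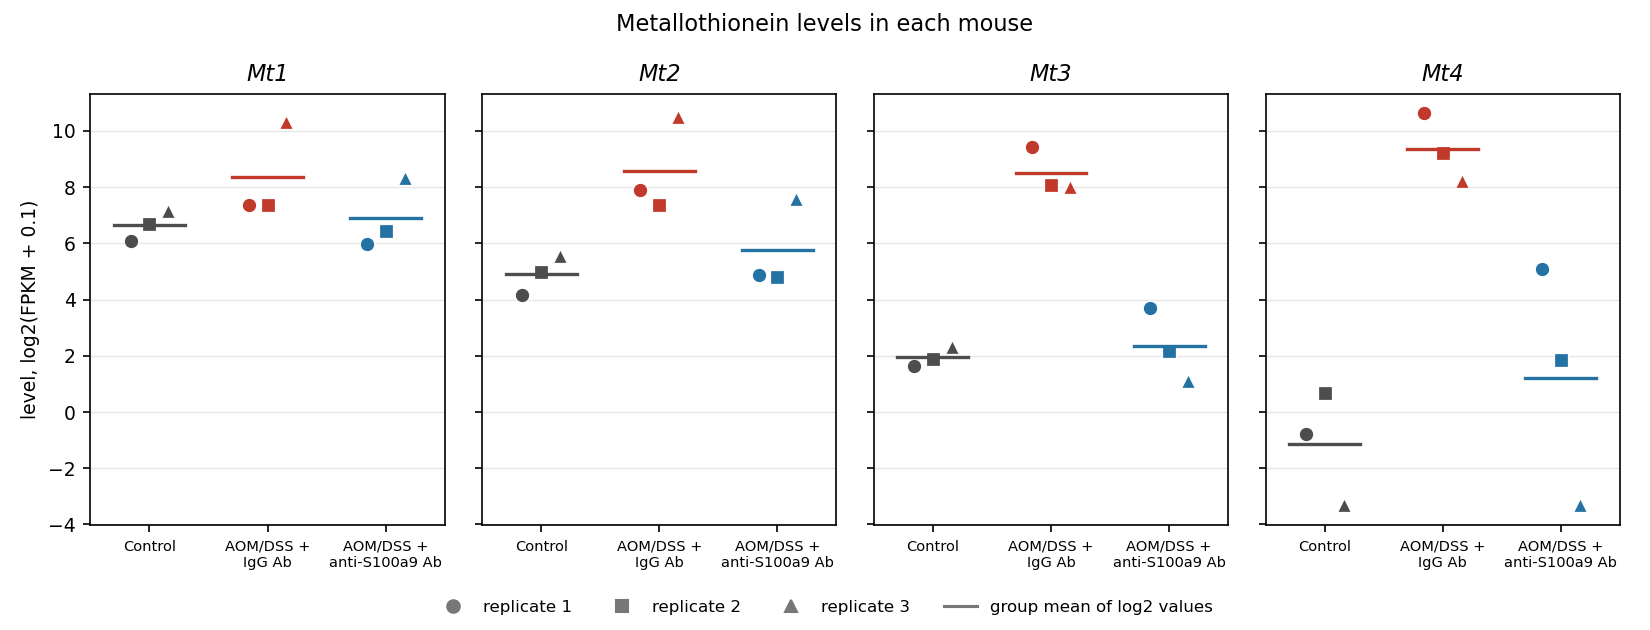
Levels of Mt1, Mt2, Mt3 and Mt4 in each of the 9 mice, as log2(FPKM + 0.1) on the vertical axis, by group on the horizontal axis; symbols stand for the replicate numbers and bars for the group means. Mt3 and Mt4 are high in all 3 AOM/DSS + IgG Ab mice (258 FPKM or more) and low elsewhere, while Mt1 and Mt2 peak in replicate 3 of both AOM/DSS groups.

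All 3 IgG Ab mice were above all 3 Control mice for 4 of the 4 genes, which was also so for 20.7% of all genes tested. All 3 anti-S100a9 Ab mice were below all 3 IgG Ab mice for 2 of 4, Mt3 and Mt4, as for 28.5% of all genes. Since the genes were chosen from these contrasts, nothing is read from these counts. Against Control the anti-S100a9 Ab mice overlapped for all 4 genes, whereas 17.3% of all genes were without overlap above and 13.7% below. The log2 differences of anti-S100a9 Ab from Control were 0.27 (SE 0.85) for Mt1, 0.85 (SE 0.93) for Mt2, 0.39 (SE 0.62) for Mt3 and 2.36 (SE 1.89) for Mt4. The signs of Mt1 and Mt2 turned negative without anti-S100a9 Ab replicate 3 (-0.44 and -0.06) and that of Mt3 without replicate 1 (-0.30). Both comparisons with the IgG Ab group share those 3 mice.

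The make-up of the family differed between groups and between mice. In all 3 Control mice the order was Mt1, Mt2, Mt3, Mt4, and Mt1 was 3.10- to 3.74-fold higher than Mt2. In the IgG Ab mice Mt1 and Mt2 were close, with a ratio of 0.703, 1.00 and 0.903 in replicates 1, 2 and 3, and in the anti-S100a9 Ab mice the ratio was 2.18, 3.05 and 1.68. The sum of the 4 genes was 88.6 to 195 FPKM in Control, 2681, 1204 and 3273 FPKM in the IgG Ab mice and 139, 122 and 513 FPKM in the anti-S100a9 Ab mice. In the IgG Ab mice the sum made up between 0.325% and 0.889% of all FPKM listed, against 0.0239% to 0.0476% in Control. Mt3 and Mt4 together gave 2.50% to 3.94% of the sum in Control. They gave 85.0% and 72.4% of it in IgG Ab replicates 1 and 2 but 16.9% in replicate 3, where Mt2 and Mt1 led. In the anti-S100a9 Ab mice their share was 33.9%, 6.54% and 0.401%. The highest sums, in IgG Ab replicates 1 and 3, were thus made up of different members.

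Over the 9 mice, Mt1 and Mt2 had the most similar pattern within the family, with a Pearson correlation of log2(FPKM + 0.1) of 0.940, and Mt3 and Mt4 had 0.936. Across these pairs the values were lower, from 0.268 for Mt1 with Mt4 to 0.704 for Mt2 with Mt3, and they rested in part on IgG Ab replicate 3, without which Mt1 had -0.0567 with Mt4 and 0.205 with Mt3. These correlations are descriptions over 9 mice in 3 groups and carry the differences between groups. Of the 12548 genes with a mean of at least 1 FPKM, those most like Mt3 were Cited1 (0.994), Wif1 (0.993), Lect2 and T. High correlations with Mt3 and Mt4 were not particular to the named genes. A correlation over 0.9 was found for 587 genes with Mt3, 151 with Mt4, 37 with Mt2 and 5 with Mt1. Likewise 285 genes were more like Mt3 than Mt4 was, and 27 more like Mt4 than Mt3 was. Wif1, a secreted inhibitor of Wnt ligands, was 1.83, 1.23 and 2.59 FPKM in Control, 657, 142 and 143 FPKM in the IgG Ab mice and 9.26, 3.70 and 0.866 FPKM in the anti-S100a9 Ab mice. T, the transcription factor brachyury, was listed at 0 in 2 Control mice and at 2.17 to 9.59 FPKM in the IgG Ab mice.

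The 5 genes most like Mt4 were Tex15 (0.976), Abcc2, Slc30a2 (0.966), Vasn and Pnliprp1. Pnliprp1, a relative of pancreatic lipase, was 0.485, 1.09 and 0.830 FPKM in Control, 1405, 430 and 148 FPKM in the IgG Ab mice and 8.89, 3.11 and 0.334 FPKM in the anti-S100a9 Ab mice. All 9 of these genes for Mt3 and Mt4 were highest in replicate 1 among the IgG Ab mice. Among the anti-S100a9 Ab mice 8 of them were highest in replicate 1, as Mt3 and Mt4 were in both groups. The genes had been chosen for their likeness to Mt3 or Mt4 over these same mice. That choice favours a shared order of replicates, so nothing is read from these counts. Adat2, which encodes part of a tRNA editing enzyme, was the gene most like both Mt1 (0.944) and Mt2 (0.962), and Ctsl, the lysosomal protease cathepsin L, was among the 5 most alike of both. Ctsl was 87.7 to 93.7 FPKM in Control and 173 FPKM in IgG Ab replicate 3. All 8 genes of this group were highest in replicate 3 of both AOM/DSS groups. In the Control group 7 of them were highest in replicate 3, as Mt1 and Mt2 were in all 3 groups. This order too was favoured by the choice of the genes for their likeness to Mt1 or Mt2, and nothing is read from it. Without IgG Ab replicate 3 the correlations of the first 5 genes with Mt1 dropped to between 0.641 and 0.839.

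**Figure D2:**
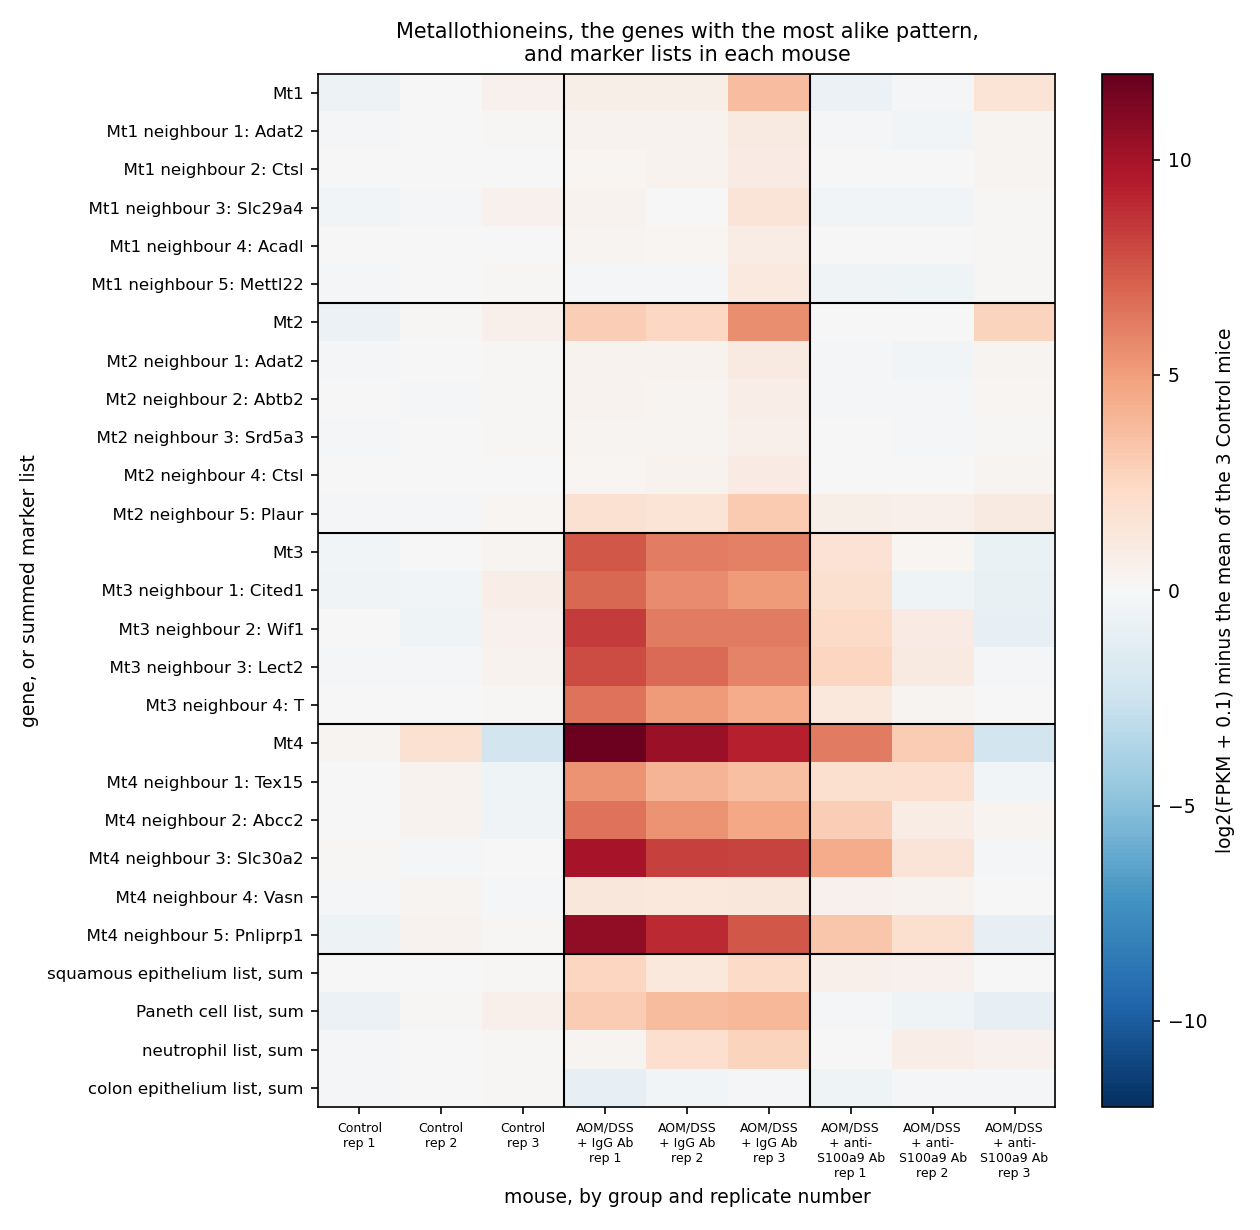
Each row is a metallothionein, one of the 4 or 5 genes with the most alike pattern over the 9 mice, or the summed FPKM of a marker list, and each column a mouse; colour gives log2(FPKM + 0.1) minus the mean of the 3 Control mice. Mt3, Mt4 and their neighbours are high in the AOM/DSS + IgG Ab mice with replicate 1 highest, and Mt1 and Mt2 are highest in replicate 3.

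Of the 5 protein-coding genes on each side of the cluster, 9 could be tested with limma. For IgG Ab against Control 0 of them passed, where 11.2% of all genes did, and 2, Gnao1 and Nup93, had an unadjusted p under 0.05. Their log2 differences ranged from -1.48 for Gnao1, a G protein subunit, to 0.50 for Nup93, a nuclear pore protein. For anti-S100a9 Ab against IgG Ab, Gnao1 was higher by 1.94 on the log2 scale (SE 0.44, limma adjusted p = 0.021) and Nup93 lower by 0.53 (limma adjusted p = 0.032), where 21.1% of all genes passed. The Nup93 call was lost with median-of-ratios scaling and with only these groups in the fit (adjusted p up to 0.052) and in the fits without Control replicate 2, IgG Ab replicate 1 or 3, or anti-S100a9 Ab replicate 1 or 2 (up to 0.114), and the Gnao1 call without any 1 of the anti-S100a9 Ab mice (up to 0.070). The lowest coordinates of the nearest flanking genes, Bbs2 (on the reverse strand) and Nup93, lie 69.2 kb before and 77.4 kb after that of Mt4. No stretch of 31 bases was shared by the annotated transcripts of any pair of members, so that at that length the members' reads can be told apart.

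**Figure D3:**
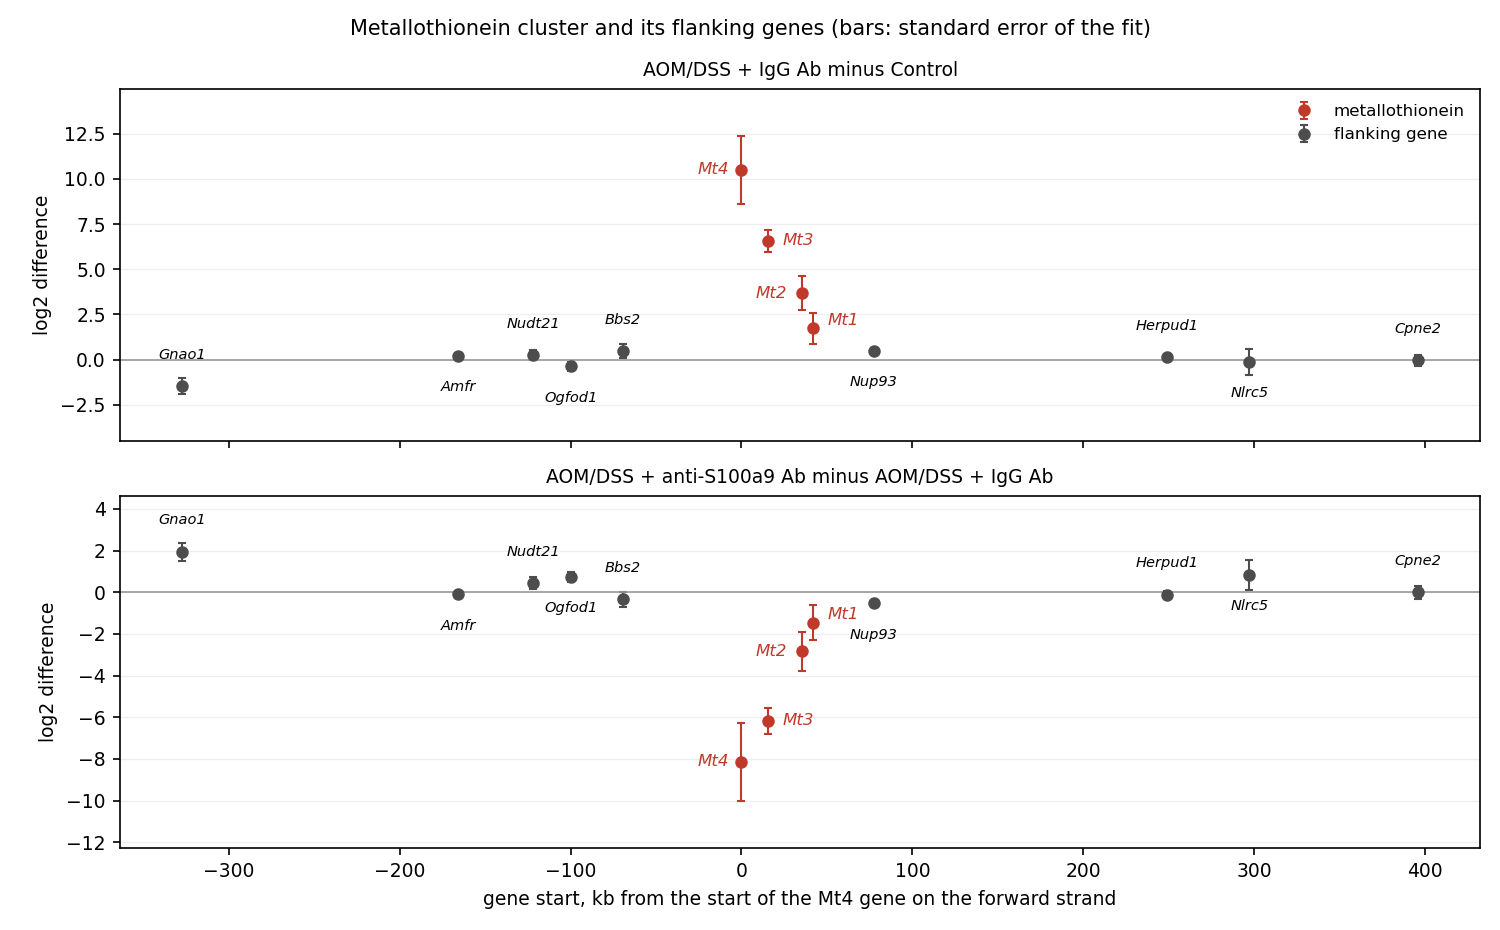
Log2 difference of each metallothionein and of 9 flanking genes, with the standard error of the fit as bars, against the distance of the gene's start from the start of Mt4 in kb, for AOM/DSS + IgG Ab minus Control (top) and for AOM/DSS + anti-S100a9 Ab minus AOM/DSS + IgG Ab (bottom). From Mt1 to Mt4 the differences grow from 1.72 to 10.50 in the top panel, while the flanking genes stay between -1.48 and 0.50.

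Genes that move zinc, supply the inducers of metallothioneins or share their thiol chemistry were examined in 8 lists of 100 genes in all, of which 94 could be tested. For IgG Ab against Control 20 of them rose (21.3%) and 2 fell (2.13%), where 8.18% of all genes rose and 3.01% fell. Of the 94 genes 1, Il6, had passed the filter on low values (0.1 FPKM in 3 mice) through the IgG Ab mice alone, so its calls in both contrasts with that group were favoured by the filter. For anti-S100a9 Ab against IgG Ab 6 rose (6.38%) and 22 fell (23.4%), where 6.72% of all genes rose and 14.4% fell. That split depended on the scaling between samples: 11 rose and 14 fell with median-of-ratios scaling, and 12 rose and 17 fell with quantile normalization. For anti-S100a9 Ab against Control 0 of 94 passed with limma, 16 had an unadjusted p under 0.05, and the lowest adjusted p was 0.30, where 0.0131% of all genes passed. The counts rested on single mice: without Control replicate 2 the first contrast had 8 calls, and without anti-S100a9 Ab replicate 1 or 2 the second had 4. The shares over all genes are also those to set beside the counts of each list below.

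Among the zinc exporters 1 of 8 tested genes rose in the IgG Ab mice, where 8.18% of all genes rose. This was Slc30a2, which encodes the transporter ZnT2 that loads zinc into vesicles of secretory cells. It was 0.146, 0.105 and 0.135 FPKM in Control, 214, 68.1 and 63.4 FPKM in the IgG Ab mice and 5.04, 0.552 and 0.104 FPKM in the anti-S100a9 Ab mice. The groups did not overlap in the IgG Ab contrasts, and the order of mice in both AOM/DSS groups was that of Mt3. Slc30a2 rose by 8.74 on the log2 scale (SE 1.00, limma adjusted p = 0.0018) and fell by 6.79 in the anti-S100a9 Ab mice (SE 1.00, limma adjusted p = 0.0065), and both calls were kept in all 9 other settings and in all 9 fits that left out 1 mouse. Slc30a1, the zinc exporter of the plasma membrane and itself a target of Mtf1, was 6.68 ± 2.41 FPKM in Control, 5.27 ± 0.684 FPKM in the IgG Ab mice and 7.95 ± 0.965 FPKM in the anti-S100a9 Ab mice (SD, n = 3 each), and did not pass in either contrast (limma adjusted p = 0.52 and 0.14). Slc30a4 rose by 1.00 in the anti-S100a9 Ab mice (limma adjusted p = 0.021).

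Among the zinc importers 4 of 13 rose and 1 fell in the IgG Ab mice. Slc39a8 (ZIP8), which imports zinc and manganese, was 2.41 ± 0.661 FPKM in Control and 14.8 ± 14.1 FPKM in the IgG Ab mice (SD, n = 3 each; log2 difference 2.20, limma adjusted p = 0.036), highest in IgG Ab replicate 1. Its call was lost with only the 2 groups in the fit (0.0998) and in 6 of 9 fits without 1 mouse, those without any 1 of the Control or anti-S100a9 Ab mice (up to 0.093). Slc39a5 fell by 1.71 (limma adjusted p = 0.016), a call lost without Control replicate 2 (0.061). For anti-S100a9 Ab against IgG Ab 4 of 13 importers fell, Slc39a8 the most (log2 difference -2.01, limma adjusted p = 0.035), and Slc39a9 rose by 0.74 (limma adjusted p = 0.027). Slc39a4, the importer of dietary zinc, was between 42.9 and 88.1 FPKM in all 9 mice and passed in neither contrast (limma adjusted p = 0.49 and 0.82).

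The factors and signals known to induce metallothioneins differed among themselves. Mtf1, the zinc sensor, was 3.63, 3.51 and 2.32 FPKM in Control, 2.97, 3.49 and 2.31 FPKM in the IgG Ab mice and 4.27, 4.72 and 4.98 FPKM in the anti-S100a9 Ab mice, and passed in neither contrast (limma adjusted p = 0.81 and 0.070; the second passed with median-of-ratios scaling and with quantile normalization, lowest adjusted p 0.043). Of 10 transcription factors tested, Stat3 rose in the IgG Ab mice, from 21.6 ± 2.28 to 35.4 ± 2.71 FPKM (SD, n = 3 each; log2 difference 0.72, limma adjusted p = 0.0096), a call lost with only the 2 groups in the fit (0.051). In the anti-S100a9 Ab mice Cebpb (log2 difference -1.74, limma adjusted p = 0.026) and Usf1 fell, and Nr3c1, the glucocorticoid receptor, rose by 1.34 (limma adjusted p = 0.015). For IgG Ab against Control 0 of 9 glucocorticoid response genes passed with limma, where 11.2% of all genes did. Of these 9, 3 had an unadjusted p under 0.05, and the log2 differences ranged from -1.52 to 0.49. Against IgG Ab 1 of them, Zbtb16, rose in the anti-S100a9 Ab mice (2.17, limma adjusted p = 0.030).

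Of 9 inducing cytokines 7 could be tested, and leaving Il6 aside the other 6 rose in the IgG Ab mice, at low levels and Il11 the most (4.57 on the log2 scale). Il6 was 0.110, 0.573 and 0.293 FPKM in the IgG Ab mice and at most 0.0553 FPKM in any other mouse, which is given as a description since the filter had kept it for those values. Il11, a cytokine of the IL-6 family, was 0.118 ± 0.0445 FPKM in Control and 6.08 ± 3.96 FPKM in the IgG Ab mice (SD, n = 3 each; limma adjusted p = 0.0033). Il1b was 3.39 ± 1.55 and 14.7 ± 5.49 FPKM (SD, n = 3 each; limma adjusted p = 0.015). In the anti-S100a9 Ab mice 3 of these 6 fell, Il11 the most (log2 difference -3.26, limma adjusted p = 0.013), with Lif and Il1b. The Lif calls were kept in all 9 fits without 1 mouse in both contrasts, whereas the rise of Il1b was lost without Control replicate 2 (0.055) and its fall without IgG Ab replicate 1 or 3 or anti-S100a9 Ab replicate 1 or 2 (up to 0.109). Il11 was highest in IgG Ab replicate 3 (9.84 FPKM) among the IgG Ab mice, as Mt1 and Mt2 were, but highest in replicate 1 (0.895 FPKM) among the anti-S100a9 Ab mice, where they were not.

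Among the genes of other metals and of thiol chemistry, 1 of 13 copper handling genes rose in the IgG Ab mice, where 8.18% of all genes rose. This was Cp, the copper-carrying ferroxidase ceruloplasmin (log2 difference 2.05, limma adjusted p = 0.011). Of 14 iron handling genes Lcn2 and Ltf rose, both of which encode antimicrobial proteins that withhold iron. Lcn2 was 1.67 ± 0.684 FPKM in Control, 117 ± 52.5 FPKM in the IgG Ab mice and 3.67 ± 0.991 FPKM in the anti-S100a9 Ab mice (SD, n = 3 each; limma adjusted p = 0.00025 and 0.00098). Of 20 thiol antioxidant genes 4 rose, led by the heme oxygenase Hmox1 (1.89, limma adjusted p = 0.015; lost without Control replicate 2, 0.055, and with only the 2 groups in the fit, 0.057), with Gpx2, Sod3 and Txnrd1. The other calls were less stable: that of Gpx2 was kept in 4 of the 9 fits without 1 mouse (adjusted p up to 0.104, and 0.085 with only the 2 groups), that of Sod3 in 3 (up to 0.112) and that of Txnrd1 in 1 (up to 0.115). Prdx6, a peroxiredoxin, fell from 1170 ± 102 to 271 ± 104 FPKM (SD, n = 3 each; log2 difference -2.19, limma adjusted p = 0.0043) and was 655 ± 53.6 FPKM in the anti-S100a9 Ab mice. Against IgG Ab, 6 of these 20 genes fell in the anti-S100a9 Ab mice, Gpx2 the most (-1.62, limma adjusted p = 0.014), and Prdx6 rose. Of the copper genes Atox1 (-1.23, limma adjusted p = 0.015) and Commd1 fell and Heph rose by 1.06 (limma adjusted p = 0.033), and of the iron genes Lcn2, Ltf and Hamp fell. The calls of Ltf, Hamp, Commd1 and Usf1 in that contrast were kept in 6, 2, 1 and 2 of the 9 fits without 1 mouse, and the rise of Ltf in the IgG Ab mice in 8. Of the 13 genes with the largest rise or fall of their list in that contrast, Slc30a2 and Lcn2 kept their calls in all 9 fits without 1 mouse. The other 11 lost them in at least 1, with 10 lost without anti-S100a9 Ab replicate 1 (adjusted p up to 0.093), 11 without replicate 2 (up to 0.108), 7 without replicate 3 (up to 0.093), 4 each without IgG Ab replicates 1 and 3 (up to 0.082 and 0.074) and 2 without Control replicate 2 (up to 0.051).

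**Figure D4:**
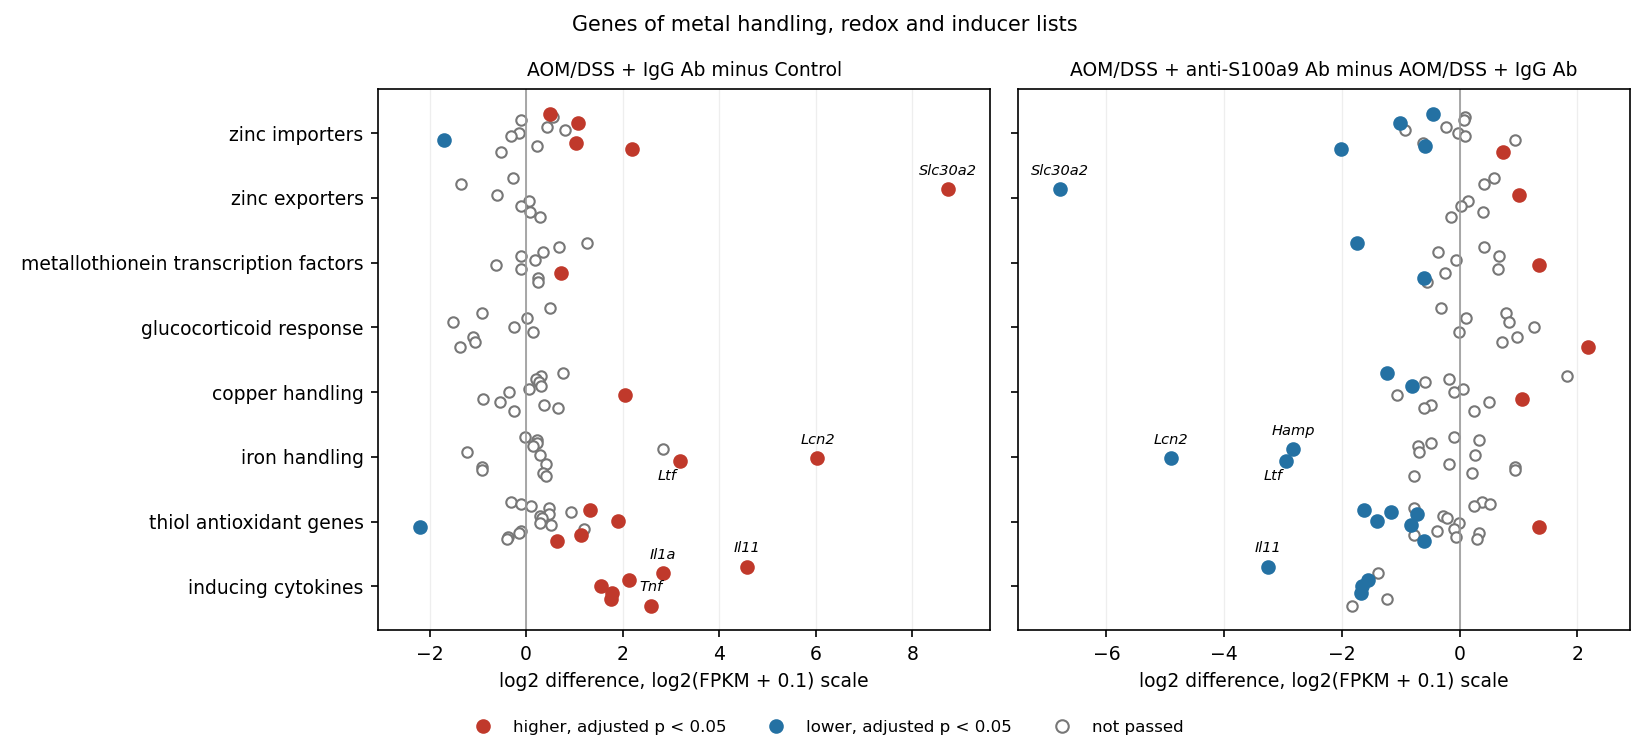
Log2 differences of the 94 tested genes of 8 lists, one point per gene and one row per list, for AOM/DSS + IgG Ab minus Control (left) and AOM/DSS + anti-S100a9 Ab minus AOM/DSS + IgG Ab (right); filled points passed an adjusted p of 0.05 with limma. Slc30a2 is the farthest point in both panels, at 8.74 and -6.79.

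Markers of other cell types also differed between the groups. Of all genes tested 8.18% rose and 3.01% fell in the IgG Ab mice against Control. In the anti-S100a9 Ab mice 6.72% of all genes rose and 14.4% fell against IgG Ab. The 14 colon epithelium markers summed to between 3922 and 8847 FPKM in the 9 mice. Epithelial RNA of the colon was thus present in each, but this sum does not tell mucosa from adenocarcinoma. Of the 14, 2 fell in the IgG Ab mice, Slc26a3 and Car1, and both rose in the anti-S100a9 Ab mice. Slc26a3 was 157 ± 62.9, 13.7 ± 14.4 and 164 ± 61.1 FPKM in the Control, IgG Ab and anti-S100a9 Ab mice (SD, n = 3 each). Car1 was 276 ± 47.5, 50.1 ± 32.4 and 361 ± 316 FPKM. The other 12 passed in neither contrast, and whether the kind of tissue differed was not tested. The 29 squamous epithelium markers, genes of the cells in which Mt4 is best known, summed to 17.3, 17.3 and 20.5 FPKM in Control, 112, 43.9 and 88.9 FPKM in the IgG Ab mice and 27.8, 25.9 and 18.8 FPKM in the anti-S100a9 Ab mice. Pkp1, which passed in no contrast, made up a large part of the Control sums. It was 7.84 ± 1.28, 9.84 ± 2.83 and 8.58 ± 1.03 FPKM in the Control, IgG Ab and anti-S100a9 Ab mice (SD, n = 3 each). Of 19 tested, 8 rose in the IgG Ab mice, among them Krt14 (37.1, 4.63 and 18.6 FPKM, against 0.797 to 1.68 FPKM in Control) and Krt13, and 2 of the 8, Dsg3 and Crnn, had passed the filter through those mice alone. The Krt14 and Krt13 calls were lost without Control replicate 2, and that of Krt14 also without Control replicate 1 (limma adjusted p up to 0.055). Of the whole list, 16 of 29 were under 1 FPKM in all 9 mice and 2, Flg and Sprr3, at 0 in all. Trp63 and Krt1 did not exceed 0.0223 and 0.0864 FPKM in any mouse, and Krt5 had a mean of 0.0376 FPKM in Control, 0.234 FPKM in the IgG Ab mice and 0.131 FPKM in the anti-S100a9 Ab mice. The squamous sum was highest in replicate 1 of both AOM/DSS groups, as Mt4 was, and its order over the anti-S100a9 Ab mice was that of Mt4, while IgG Ab replicates 2 and 3 stood in the opposite order. The 7 Paneth cell markers measured, of zinc-rich secretory cells, summed to 80.5, 138 and 189 FPKM in Control, 1075, 1833 and 1973 FPKM in the IgG Ab mice and 118, 92.3 and 64.4 FPKM in the anti-S100a9 Ab mice. Of these 7, 6 rose in the IgG Ab mice and 6 fell in the anti-S100a9 Ab mice, where Reg3g was among those that rose but not those that fell, and Itln1 among those that fell but not those that rose. Itln1 made up most of the Control sum, with means of 92.1, 109 and 21.3 FPKM in the Control, IgG Ab and anti-S100a9 Ab mice. The 11 neutrophil markers, which include S100a8 and S100a9, summed to 96.1, 115 and 123 FPKM in Control and 136, 462 and 698 FPKM in the IgG Ab mice. In the anti-S100a9 Ab mice they summed to 105, 187 and 156 FPKM. Of 10 tested, 5 rose in the IgG Ab mice and 4 fell in the anti-S100a9 Ab mice. Ly6g made up most of the Control sum and went the other way. Its means were 104, 72.4 and 124 FPKM in the Control, IgG Ab and anti-S100a9 Ab mice, where those of S100a9 were 0.602, 168 and 9.16 FPKM. The 10 markers of enteric neurons and glia summed to 33.8 to 67.8 FPKM in Control, 16.7 to 83.4 FPKM in the IgG Ab mice and 44.8 to 54.1 FPKM in the anti-S100a9 Ab mice, and for IgG Ab against Control 0 of 10 passed with limma, with 6 at an unadjusted p under 0.05. The smooth muscle sums were 1825 to 2891, 524 to 3281 and 2278 to 4136 FPKM. The adipocyte sums were 85.9 to 290, 16.7 to 56.4 and 30.8 to 45.5 FPKM in the same order. The part of these cells in the metallothionein levels was not tested.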

How the data were processed

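RNA from the colorectal tissue of 9 mice, 3 per group, was sequenced as 1 library per mouse. The authors deposited 1 file per mouse, with 21544 rows that carry a symbol and a decimal value. Their unit, not given in the sources used here, was taken as FPKM, since the deposited values sum to between 308377 and 408811 per mouse. The submitters' processing notes name TopHat, Cufflinks, HTSeq, DESeq and GRCm38, without versions. Depth, estimated from the steps between the lowest values, was 22300000 to 29300000 fragments per library. Correlations of log2 values between mice were 0.917 to 0.970 within groups and 0.839 to 0.972 between groups.

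Rows sharing a symbol were added up (46 rows, leaving 21498 symbols). A linear model with a term for each group was fitted to log2(FPKM + 0.1) by limma 3.58.1 (R 4.3.3), with an intensity trend, for the 15278 genes that reached 0.1 FPKM in 3 or more mice. Genes were said to rise or fall at a Benjamini-Hochberg adjusted p under 0.05 over all these genes. DESeq, which the authors used, needs counts and was not run. The script was tested on simulated data. Members and lists were chosen with earlier results of these data known; members were given no p, and no set test was run. Named genes are the members, the called gene with the largest rise and fall of each list and contrast, Mtf1, Slc30a1 and Slc39a4, the 5 most alike genes per member (1 of those of Mt3 is not reported here), the flanking genes and up to 4 leading genes per marker list. Others (Usf1, Commd1, Ltf, Hamp, Sod3, Txnrd1, Lif, Il6, Il1b, Krt13, Trp63, Krt5, Krt1, Dsg3, Crnn, Flg, Sprr3, Reg3g, Itln1, Slc26a3, Car1) were named after their values were seen. Positions are from GENCODE M21 (GRCm38) and promoters from RefSeq (GRCm38.p6), which held all 4 members. Alternatives were other pseudocounts, filters and scalings, a fit of only the groups compared, no trend, a replicate block, the study's thresholds (unadjusted p under 0.05, more than 2-fold) and leaving out each mouse.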

Additional observations from a re-analysis of the deposited data

How the results depend on the processing

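No log2 difference of a metallothionein between groups moved by more than the spread between replicates in any of the 9 other settings tried. Only the other pseudocounts and scalings could move these differences, since the remaining settings leave the group means as they are. With 1 mouse left out the IgG Ab against Control values ranged from 0.74 to 2.21 for Mt1 and 2.73 to 4.28 for Mt2. They ranged from 6.11 to 6.81 for Mt3 and 9.42 to 11.41 for Mt4. The anti-S100a9 Ab against IgG Ab values then ranged from -2.16 to -0.47, -3.74 to -1.88, -6.87 to -5.57 and -10.08 to -5.87, and those against Control from -0.44 to 0.73, -0.06 to 1.31, -0.30 to 1.00 and 0.42 to 4.63. Genes called for IgG Ab against Control were 1710, with 627 when only the 2 groups entered the fit and 591 (without Control replicate 2) to 2167 (without IgG Ab replicate 2) with 1 mouse left out; list genes called were 22, 11 and 8 to 26. For anti-S100a9 Ab against IgG Ab, 3219 genes and 28 list genes were called, with 516 to 4114 and 4 to 41 when 1 mouse was left out. For anti-S100a9 Ab against Control 2 genes were called, 4 with a pseudocount of 0.01, 1 without the filter, 1 without the intensity trend, 0 with only the 2 groups, 0 to 5 with 1 mouse left out, and 481 (6 of the lists) at an unadjusted p under 0.05 and over 2-fold. The cause of these moves was not tested, except that the fit of 2 groups holds fewer samples.

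Scaling changed the split of calls: for IgG Ab against Control 1250 genes rose and 460 fell, 976 and 549 with median-of-ratios scaling, and 947 and 631 with quantile normalization; for anti-S100a9 Ab against IgG Ab 1026 rose and 2193 fell, 1327 and 1504, and 1389 and 1706. Median-of-ratios scaling moved the median of all genes for IgG Ab against Control from 0.094 to -0.025, small beside the members' differences.

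The replicate numbers in the labels name biological replicates, and the labels do not say whether same-numbered mice shared a litter or day. Correlations of the deviations of same-numbered mice ranged from -0.187 to 0.249 over 9 pairs, 5 of them over 0.1. Those of different-numbered mice ranged from -0.267 to 0.190. Since no pairing is stated, the numbers were not taken as pairs, but a factor shared by number cannot be told from these values. With the number as a replicate block 1703, 3361 and 2 genes and 21, 32 and 0 list genes were called in the 3 contrasts. The members' log2 differences cannot change with this block, since every group holds the same numbers. With 3 mice a group and no stated depth, differences under the spread of a group, such as those of Mt1 and Mt2 between the anti-S100a9 Ab and Control mice, were not detectable.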
